A study of Bos taurus with 12 samples.

Results

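Zinc finger protein genes were taken as every gene of the deposited site and tile tables whose symbol began with ZNF or ZFP followed by a number. They held 1097 of the 196275 listed CpG sites and 127 of the 11830 genes with a listed site. Each site is a single cytosine, so site counts below take the strands of a CpG separately unless stated otherwise. At 235 CpGs of these genes both strands were listed, and 862 CpGs remained when the strands were joined. Of the 1227 listed tiles, which are windows of 500 bases, 1 belonged to these genes. DNA methylation was measured in whole blood of 12 cows raised under the same conditions. The mastitis susceptible group (MSG) was made up of 6 cows culled in the year after sampling for complications of mastitis, which had not been noticed when blood was drawn. The 6 cows of the mastitis resilient group (MRG) had about the same ages and remained in the herd a year later. The labels name no treatment, and cows are numbered within a group only to name them. The comparison addressed whether blood methylation differed between cows before the disease was known.

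Most zinc finger proteins of this naming scheme carry arrays of C2H2 fingers, each of which folds around a zinc ion and reads a few bases of DNA. Many of them also carry a KRAB domain, which recruits TRIM28 and, through it, histone methyltransferases and DNA methylation to repress the bound sequence. Genes of the KRAB type lie in clusters that grew by repeated duplication, while other members, such as the CCCH-type ZFP36 proteins that bind messenger RNA, share the name only. In blood, members of both kinds take part in lymphocyte development, signalling and the turnover of inflammatory transcripts.

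Methylation is given as the percent of reads that stayed cytosine at a CpG, so 0% stands for no methylated read and 100% for no unmethylated one. The chemistry reads a thymine in a cow's own genome as an unmethylated cytosine, and genotypes were not analysed here, so the part of sequence variants in these values was not tested. Whole blood mixes cell types, and a different share of a cell type cannot be told apart from a difference within it. Listed sites were also named, by the nearest start, for genes that mark blood cells. T cell markers held 188 listed sites at 5 of 7 genes, of which 145 were higher in MSG, and eosinophil markers held 69 at 2 of 3 genes, with 65 higher. B cell markers had 23 of 31 sites higher at 4 of 6 genes, NK cell markers 23 of 28 at 4 of 4, monocyte markers 25 of 28 at 2 of 4 and neutrophil markers 9 of 10 at 1 of 6. Erythroid markers had 75 of 167 sites higher at 2 of 4 genes and platelet markers 7 of 17 at 1 of 3. Of all listed sites 52.7% were higher. Within 10 kb of a start lay 6 of the T cell, 1 of the eosinophil, 1 of the B cell and 15 of the NK cell marker sites. So did 19 of the monocyte, 5 of the neutrophil, 7 of the erythroid and 1 of the platelet marker sites. Inside the named gene lay 56 of the T cell, 7 of the eosinophil and 27 of the B cell marker sites. The part of cell composition in the zinc finger values was not tested.

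All listed rows had been chosen by the authors on these same 12 cows, with an absolute difference of at least 25 percentage points and a q-value of at most 0.01. Tests made again on these rows are therefore not independent evidence, and the number of listed sites of a gene also depends on how many of its CpGs were covered, which was not analysed here. Among the zinc finger sites, 594 were higher and 503 lower in MSG, so 54.1% were higher against 52.7% of all listed sites. Per cow, the mean over all zinc finger sites lay between 52.0% and 59.7% in MSG and between 49.0% and 57.0% in MRG, and the groups overlapped. At the sites listed as higher MSG averaged 69.1% ± 5.61 and MRG 36.5% ± 6.40 in MRG, and at the sites listed as lower 38.3% ± 2.80 and 71.8% ± 2.63 (SD, n = 6 cows each). These last 4 means describe the selection and are no test.

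The sites were spread unevenly over the genes. The median gene had 3 listed sites, 30 genes had 1, and the 23 genes with 10 or more held 752 sites, or 68.6%. ZNF518B had 89 sites, ZNF608 had 69, ZNF423 had 56, ZNF536 had 55, ZNF385D had 51, ZNF385B had 47, ZNF706 had 41 and ZFP42 had 37. These 8 genes carried 40.6% of all zinc finger sites. By majority of their sites, 69 genes were higher in MSG, 49 were lower and 9 were tied. Of the 52 genes with at least 5 sites, 7 were higher and 9 lower at every site.

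**Figure D1:**
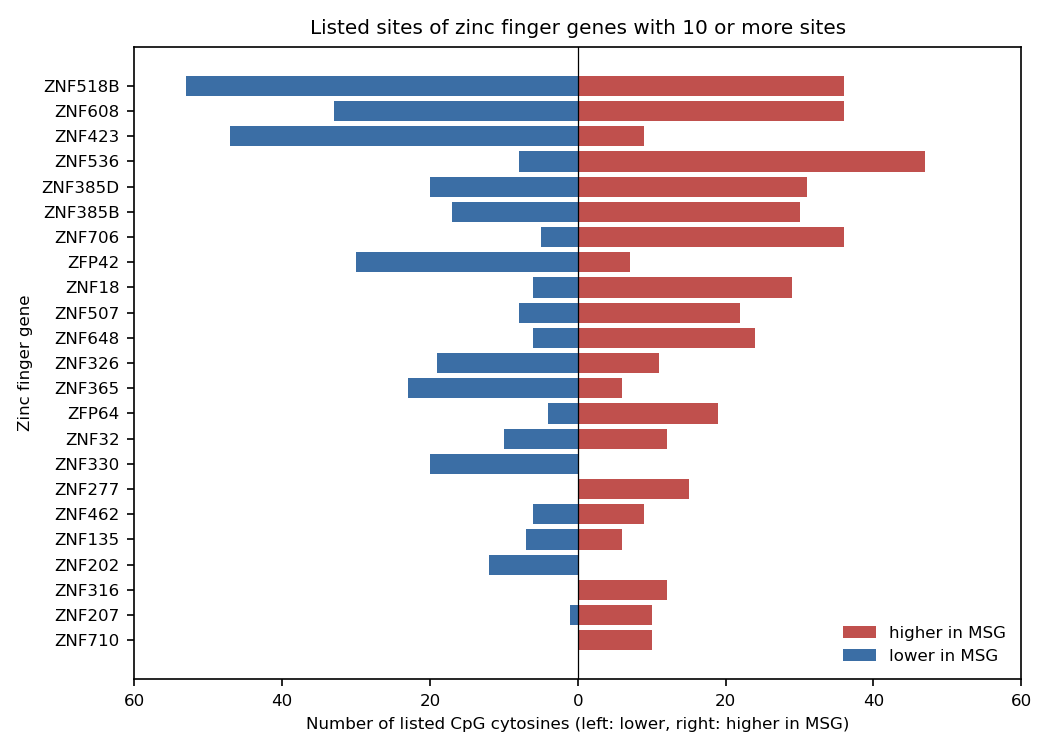
Number of listed CpG sites (horizontal axis) of each of the 23 zinc finger genes with 10 or more, with sites lower in MSG to the left of 0 and sites higher to the right. ZNF536 and ZNF706 lie mostly to the right with 47 and 36 higher sites, ZNF423 and ZFP42 mostly to the left with 47 and 30 lower sites, and ZNF330 and ZNF202 have lower sites only.

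By the annotation class of the deposited table, 627 sites (57.2%) were distal intergenic, 344 (31.4%) intronic, 28 exonic and 91 within 3 kb of a transcription start. This promoter class made up 8.30% of the zinc finger sites and 5.44% of all listed sites. Within 10 kb of a start lay 24.7% of the zinc finger sites and 17.5% of all sites. A site carries the name of the gene with the nearest start, which is not always the gene it lies in. Of the 379 sites in an intron, exon or untranslated region, 280 lay in the zinc finger gene itself and 92 in another gene. The 33 intronic and exonic sites of that kind named for ZNF18 lay in DNAH9, 16 named for ZNF648 lay in CACNA1E and 11 named for ZNF277 lay in DOCK4. The 38 genes with another zinc finger gene of this naming scheme as a direct neighbour had 59.4% of 175 sites higher at a median distance of 7.53 kb from the start. The 87 genes without such a neighbour had 53.1% of 919 sites higher at a median distance of 56.4 kb.

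At the level of single sites, limma with Benjamini-Hochberg adjustment over all listed sites called 0 zinc finger sites, and it called 0% of all listed sites. The lowest adjusted p was 0.0781. At an unadjusted p under 0.05, limma passed 556 of the 1097 zinc finger sites (50.7%), against 51.9% of all sites. The exact permutation test over the 924 regroupings of the cows passed 352 zinc finger sites at that level, against 35.5% of all sites, and none after adjustment. At 806 zinc finger sites (73.5%) at least 1 cow was at exactly 0%, against 78.3% of all sites. Over the 291 sites with no cow at 0%, fitted with the other such sites of the table, limma called 224 (102 higher, 122 lower), while 73.1% of all such sites were called. The zinc finger share called was thus near that of the whole table in each of these fits. Of the 291 sites, 132 were higher in MSG (45.4%), while 24459 of the 42667 such sites of the table were higher. ZNF518B, with 3 of 38 such sites higher, and ZNF365, with 0 of 22, gave many of the lower ones.

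The values of CpGs listed on both strands were compared. At 235 CpGs both strands were listed, and in all 235 the direction was the same. Each strand had passed the authors' selection on these same cows, so this agreement was largely fixed in advance. It is no check of the values. The median difference between the strands of a CpG within a cow was 5.56 points over 2747 pairs of values. A cow was at 0% on both strands in 662 of these pairs and on 1 strand only in 18. At these CpGs, values at exactly 0% were therefore shared by the strands in nearly all pairs that had one.

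At 23 zinc finger sites (2.10%) the cows of the groups did not overlap, against 2.36% of all listed sites. MSG was higher at 12 of them and lower at 11, and the same held for 1.39% and 0.971% of all listed sites. At 13 of the 23 no cow was at 0%, among them sites of ZNF423, ZNF536, ZNF385D, ZNF385B, ZNF706, ZNF827 and ZFP36L2. ZNF827, which recruits the nucleosome remodelling complex NuRD to telomeres, had 1 listed site, in an exon (chromosome 17, position 12442653). There 5 MSG cows were at 100% and the sixth at 93.8%, while MRG ranged from 44.4% to 84.6% with a median of 66.2%. The mean difference was 33.3 points, and limma did not call it over all listed sites (adjusted p = 0.0891). In the fit over sites with no cow at 0% limma called it (adjusted p = 0.0318), as it did 73.1% of all such sites. At the ZNF706 site 97.4 kb from the start (chromosome 14, position 63247978) MSG ranged from 80% to 100% and the 5 MRG cows with a value from 14.3% to 78.6%. At the intronic ZNF423 site (chromosome 18, position 18295655) MSG lay between 86.7% and 100% and MRG between 33.3% and 84.6%. At all 3 sites every MSG cow was at 80% or above, and the MRG cows were lower and further apart.

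**Figure D2:**
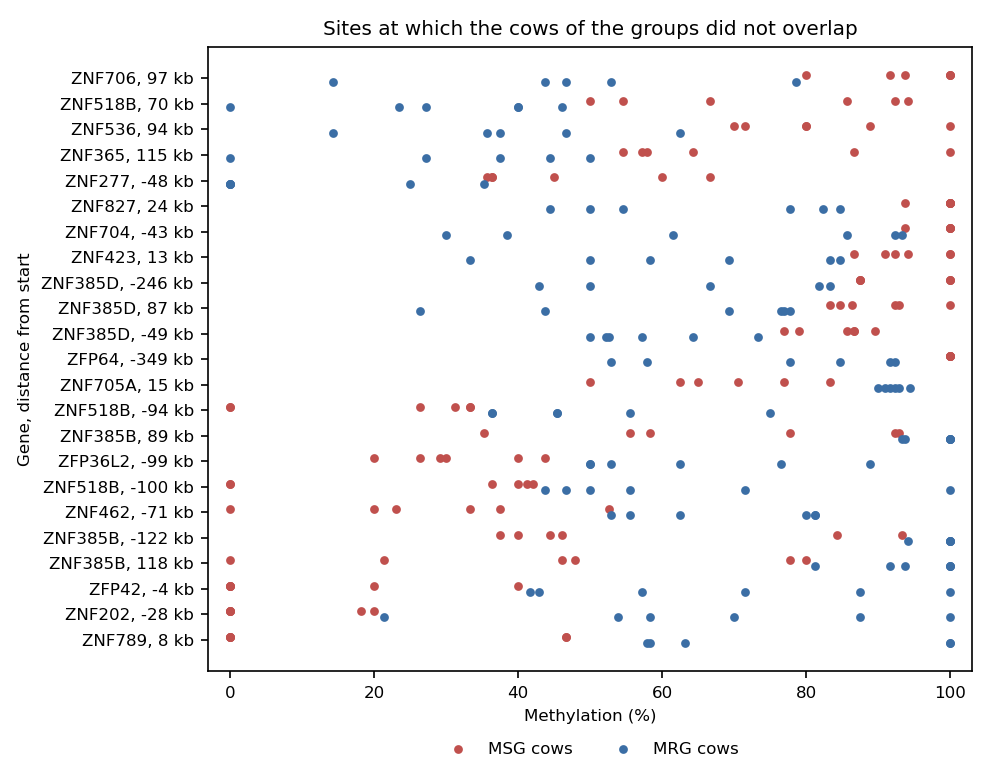
Percent methylation (horizontal axis) of each cow at the 23 zinc finger sites at which the groups did not overlap, with 1 line per site labelled by gene and distance from the start. MSG cows lie to the right of MRG cows at 12 sites and to the left at 11, and the gap between the groups is often only a few points, as at ZNF704.

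Because sites of one gene share reads and neighbouring sequence, each gene with at least 5 sites of one direction was also summarised by 1 mean per cow over those sites. The strands of a CpG counted as separate sites toward these 5, and a minimum counted in CpGs was not tested. Of the zinc finger genes, 46 gave 62 such means, and 81 genes had too few sites. Limma, adjusted over the 7087 gene and direction means of the table, called 56 of the 62 (90.3%), against 89.1% of all of them. By direction it called 31 of 32 means of higher sites (90% in the table) and 25 of 30 means of lower sites (88.1% in the table). The exact permutation test called 31 of 62 (56.9% in the table). The cows of the groups did not overlap in 6 of the 62, against 9.37% in the table. These shares lay close to the table's own. An adjusted p of 0.0281 was the lowest of the zinc finger means and was shared by many of them.

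**Figure D3:**
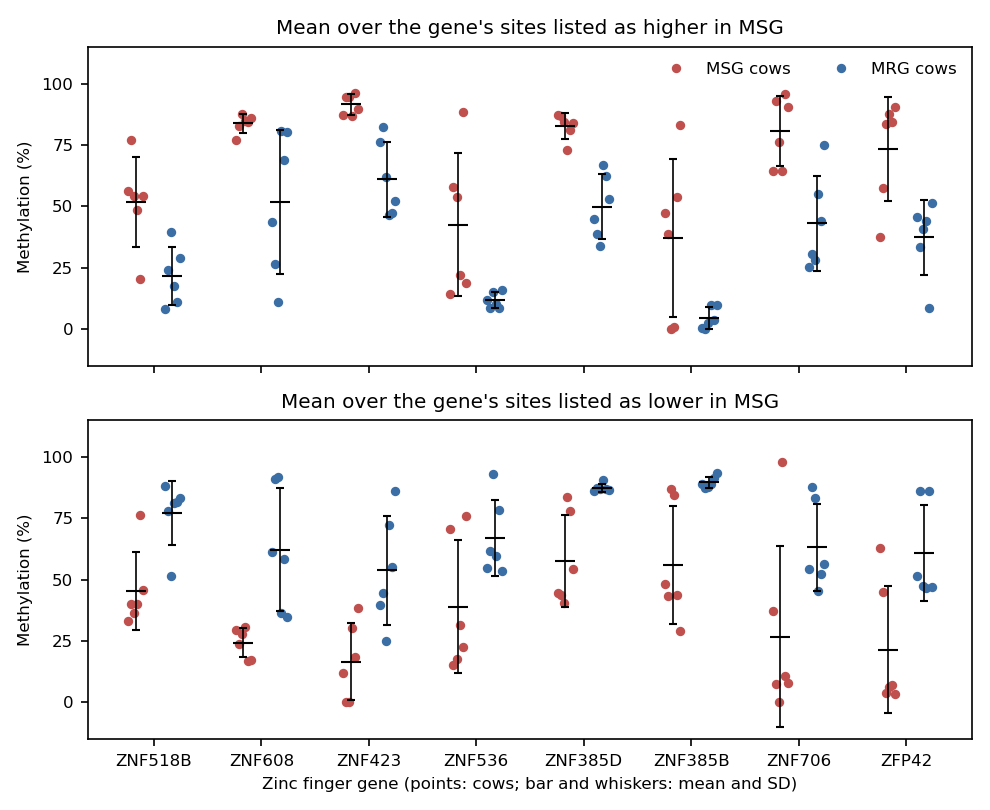
Mean percent methylation per cow (vertical axis) over the sites listed as higher in MSG (upper panel) and as lower in MSG (lower panel) for the 8 genes with the most sites, with points for cows and bars for the group mean and SD (n = 6). MSG cows of ZNF536 and ZNF385B are split into high and low cows in the upper panel, and the MRG cows of ZNF385D and ZNF385B sit within a few points of each other in the lower panel.

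ZNF608, whose mouse counterpart represses the recombinase genes of developing lymphocytes, had both the single tile and the second most sites. The tile covered chromosome 7, 28684501 to 28685000, in intergenic DNA at -335 kb from the start of ZNF608. MSG cows had 28.8%, 29.5%, 32.9%, 40.7%, 27.0% and 21.3%, and MRG cows 70.0%, 91.0%, 95.8%, 35.2%, 46.9% and 18.9%. The groups overlapped, as they did in all but 6.03% of the listed tiles, since MRG cow 6 was below every MSG cow and MRG cow 4 was below MSG cow 4. They averaged 30.0% ± 6.49 and 59.6% ± 31.1 (SD, n = 6 each), a difference of -29.6 ± 11.9 points (SE). The authors' deposited table gave -32.3 points and a q-value of 5.44e-17. Limma gave an adjusted p of 0.0395 in a table where it called 73.3% of the tiles, and the exact permutation test gave p = 0.0563, adjusted 0.0841. The limma call held only without MSG cow 4, MRG cow 4 or MRG cow 6, and without each of the other 9 cows the adjusted p lay between 0.0522 and 0.0880.

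The single sites of ZNF608 placed MRG cows 4 and 6 near the MSG cows, as the tile did. Of 69 sites, 65 were distal intergenic, and none lay within 10 kb of the start. Over the 33 lower sites MSG lay between 17% and 30.6% and MRG between 34.6% and 91.7%, with no overlap. MRG cows 2 and 3 were at 91.1% and 91.7%, and MRG cows 4 and 6 were within a few points of the MSG cows. The difference was -37.9 ± 11.7 points (limma adjusted p = 0.0281). Over the 36 higher sites MSG lay between 77.0% and 87.6%, and MRG cows had 43.8%, 26.6%, 11.0%, 80.8%, 68.8% and 80.2%. The same MRG cows 4 and 6 were again close to MSG. This difference of 31.9 ± 12.2 points (adjusted p = 0.0294) was no longer called without MRG cow 2 (adjusted p = 0.0593) or MRG cow 3 (adjusted p = 0.0656).

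ZNF385B, which has been described with p53 in germinal centre B cells, and its paralog ZNF385D carried sites of both directions. In ZNF385B, 39 of 47 sites lay in its own introns. Over its 30 higher sites MSG cows had 47.5%, 38.7%, 0%, 0.697%, 53.8% and 83.1%, and MRG cows had 0.370%, 0%, 2.47%, 10.01%, 3.65% and 9.84%. MSG cows 3 and 4 were thus as low as the MRG cows, and the other 4 MSG cows were above all of them. Of these sites 18 formed 1 run of 4647 bases in an intron (chromosome 2, 17203679 to 17208325), in which MSG cow 3 and MRG cows 1, 2, 3 and 5 were at 0% at every site. The difference of the 30 sites was 32.9 ± 12.7 points (limma adjusted p = 0.0296), and it was not called by the exact permutation test (adjusted p = 0.0716). Without MSG cow 1, 5 or 6 the limma adjusted p was 0.0502, 0.0504 and 0.0727.

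The 17 lower sites of ZNF385B set the same MSG cows apart. MSG cows 3 and 4, at 86.9% and 84.7%, were close to the MRG range of 87.3% to 93.3%, and the other MSG cows lay between 28.9% and 48.1%. The groups did not overlap, and the difference was -33.7 ± 11.5 points (limma adjusted p = 0.0281). At ZNF385D 32 of 51 sites were distal intergenic, up to 526 kb from the start, and 17 lay in its own introns. Only 7 of the 51 sites of ZNF385D had a cow at 0%. Its 31 higher sites gave 73.0% to 87.4% in MSG and 33.7% to 66.8% in MRG, a difference of 32.9 ± 10.4 points (adjusted p = 0.0281). Its 20 lower sites gave 40.6% to 83.8% in MSG and 86.1% to 90.5% in MRG, a difference of -29.9 ± 10.8 points (adjusted p = 0.0283). Neither pair of groups overlapped, and the MRG cows of the lower sites had an SD of only 1.56 points against 18.8 in MSG.

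The list of zinc finger genes of lymphocytes and innate signalling, which holds neither ZNF608 nor ZNF385B and ZNF385D, had 10 listed sites at 4 of 9 genes, 7 of them higher. ZNF366, a transcriptional regulator of dendritic cells, had 7 sites, none within 10 kb of its start. Its 5 higher sites had a median of 52.0% in MSG (46.3% to 90.6%) and of 34.3% in MRG (0% to 48.5%), with MSG cows 3 and 4 near 90%. The difference was 32.5 ± 11.8 points (limma adjusted p = 0.0284), and without MSG cow 3 it was not called (adjusted p = 0.0540). ZNF341, which drives expression of STAT3, had 1 intronic site, lower by 38.1 points in MSG. The groups overlapped there, with MSG cow 4 at 64.3% and MRG cow 1 at 0%. ZNF395 and ZNF683 of this list also had 1 site each, higher by 22.7 and 17.6 points. ZNF341 was named for its larger difference.

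Genes of progenitors and development made up the largest list, with 278 sites at 12 of 15 genes, of which 145 were higher. ZNF423, a many-fingered protein that binds EBF and SMAD factors and acts in adipocyte commitment, had 43 sites in its own introns and 9 in promoters. Over its 47 lower sites MSG cows had 11.8%, 0%, 0%, 30.2%, 18.6% and 38.4%, and MRG cows 39.5%, 44.8%, 25%, 72.4%, 55.1% and 85.9%. MSG cows 2 and 3 were at 0% at all of these sites, and MRG cow 3 was the only MRG cow among the MSG values. The difference was -37.3 ± 11.9 points (limma adjusted p = 0.0281). The 9 promoter sites were all lower, with 13.7% ± 13.5 in MSG and 48.7% ± 19.6 in MRG. The 9 higher sites did not overlap between the groups, with 86.8% to 96.4% in MSG and 46.5% to 82.2% in MRG (adjusted p = 0.0281).

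ZNF536, a repressor of neuronal differentiation that is best known from the brain, had 47 of 55 sites higher. MSG cows had 14.4%, 57.9%, 53.7%, 21.9%, 88.6% and 18.9% over these sites, and MRG cows lay between 8.48% and 15.8%. The higher mean of MSG thus came from cows 2, 3 and 5, while MSG cow 1 lay within the MRG range and cows 4 and 6 were a few points above it. In the run of 11 sites at chromosome 18, 40758390 to 40759978, MSG cows 2, 3 and 5 had 49.7%, 41.9% and 92.9%, the other 3 MSG cows were at 0%, and no MRG cow was above 1.30%. The difference over the 47 sites was 30.8 ± 12.2 points (limma adjusted p = 0.0308). It was not called without MSG cow 2 (adjusted p = 0.0548), cow 3 (0.0554) or cow 5 (0.0810). Over the 8 lower sites the same cows 2, 3 and 5 were the lowest of the MSG cows, at 15.4%, 17.8% and 22.7%. That difference of -27.8 ± 12.5 points (limma adjusted p = 0.0417) was not called by the exact permutation test (adjusted p = 0.0716), and limma called it in 4 of the 12 fits that left out a cow. Without MSG cow 2, 3, 4 or 5 or MRG cow 1, 2, 3 or 5 the adjusted p lay between 0.0513 and 0.0966.

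ZFP42, also called REX1 and used as a marker of pluripotent cells, had 37 sites, all intergenic and 30 of them lower. Over these 30, MSG cows had 63.0%, 44.8%, 3.70%, 6.37%, 6.99% and 3.45%, and MRG cows lay between 46.8% and 86.2%. MSG cow 1 lay within the MRG range and MSG cow 2 just below it, while the other 4 MSG cows were almost unmethylated. The difference was -39.4 ± 12.7 points (limma adjusted p = 0.0281). Over the 7 higher sites the same MSG cows 1 and 2 were the lowest of their group, at 37.6% and 57.6%, and the difference was 36.1 ± 11.7 points (adjusted p = 0.0281). ZNF706, a small zinc finger protein that helps embryonic stem cells leave self-renewal, had 36 of 41 sites higher, 39 of them intergenic. Its higher sites had a median of 83.4% in MSG (64.5% to 95.9%) and of 37.4% in MRG (25.4% to 75.1%), and only MRG cow 6 overlapped with MSG. The difference was 37.7 ± 11.4 points (adjusted p = 0.0281). At its 5 lower sites MSG cow 4 was at 97.8% and the other MSG cows between 0% and 37.3%. That difference of -36.3 ± 14.1 points (limma adjusted p = 0.0298) was not called by the exact permutation test (adjusted p = 0.0733), nor by limma without MSG cow 2, 3, 5 or 6 or MRG cow 2 or 3 (adjusted p from 0.0506 to 0.0625).

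**Figure D4:**
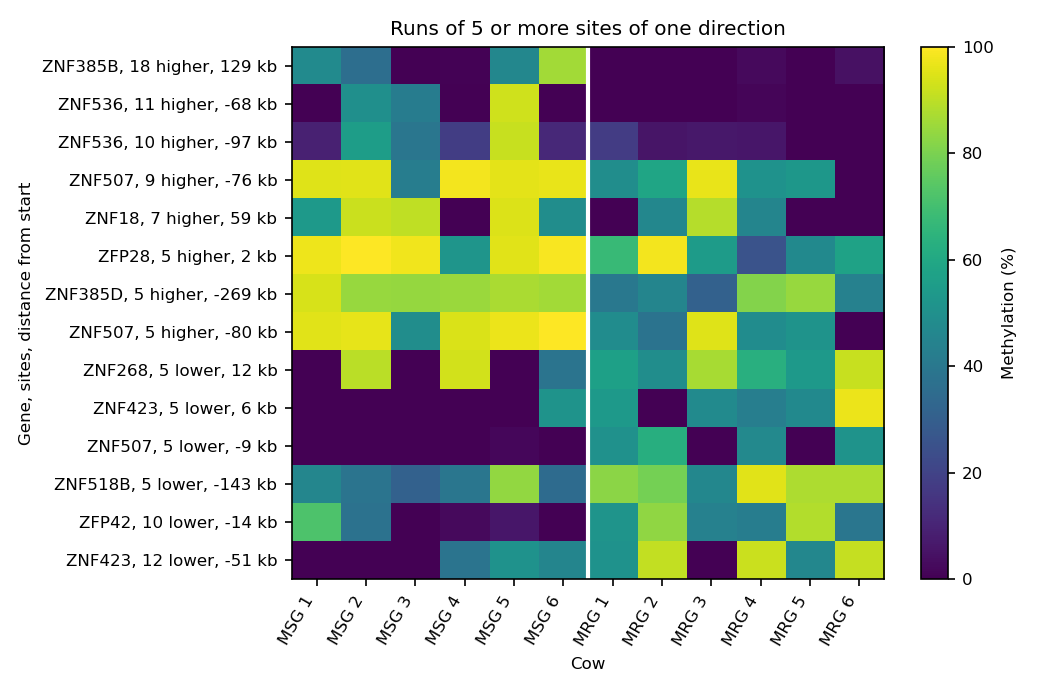
Mean percent methylation (colour) of each cow (columns) in the 14 runs of at least 5 sites of one direction with gaps of at most 1 kb, labelled by gene, number of sites, direction in MSG and distance of the median site from the start. The cows fall near 0%, near 50% or near 90% in several runs, as MSG cows 2, 3 and 5 do in the ZNF536 runs, and different cows are high in different genes.

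The listed sites formed 667 runs when a gap of more than 1000 bases ended a run, and 414 of them were single sites. Of the 20 runs of at least 5 sites, 14 were of one direction. ZNF423 had a run of 12 lower sites in an intron (chromosome 18, 18185504 to 18186959), in which MSG cows 1, 2 and 3 and MRG cow 3 were at 0%. The other MSG cows lay between 38.6% and 51.0% there, and the other MRG cows between 46.4% and 92.1%. The ZFP42 run of 10 lower sites (chromosome 27, 17547961 to 17549748) had 2 MSG cows at 0%, 2 more below 10% and MSG cows 1 and 2 at 71.9% and 37.6%, while MRG lay between 39.4% and 88.5%. In the ZNF423 run the cows of both groups, and in the ZFP42 run those of MSG, were split into low and high values rather than shifted together. In some other runs the MSG cows lay close together while the MRG cows were split. All MSG cows lay between 84.0% and 94.0% in the ZNF385D run, where MRG cows 4 and 5 had 81.6% and 84.7%. The other MRG cows lay there between 30.9% and 45.4%. In the ZNF507 run of lower sites the MSG cows lay between 0% and 1.82%. MRG cows 3 and 5 were at 0% in that run, and the other MRG cows lay between 46.9% and 62.6%.

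ZNF518B, a partner of the histone methyltransferase EHMT2, had the most listed sites of these genes, 85 of 89 in intergenic DNA up to 145 kb from its start on chromosome 6. Over its 53 lower sites MSG cows had 33.1%, 40.1%, 36.2%, 39.9%, 76.4% and 45.7%, and MRG cows 88.3%, 77.9%, 51.5%, 81.2%, 81.8% and 83.2%. MSG cow 5 lay among the MRG cows and MRG cow 3 nearer to the MSG cows, and the remaining 10 cows were separate by group. The difference was -32.1 ± 11.0 points (limma adjusted p = 0.0281). Over the 36 higher sites MSG cow 5 was again apart, at 20.6% against 48.7% to 76.9% in the other MSG cows, and MRG lay between 8.25% and 39.8%. This difference of 30.2 ± 11.1 points (adjusted p = 0.0284) was not called without MSG cow 2 (adjusted p = 0.0524). The 4 promoter sites were lower in MSG, where cows 2, 5 and 6 were at 97.1% to 100% like all MRG cows (96.9% to 100%), and cows 1, 3 and 4 had 54.6%, 29.8% and 51.1%.

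Chromosome 18 held 236 sites of 28 zinc finger genes, 131 of them higher, and the means over the higher sites of 3 of its genes with many promoter sites had the same cows lowest. ZNF135 and ZFP28, both of the KRAB type, and the C2H2 gene ZNF329 had 8, 5 and 7 promoter sites. ZNF135 and ZNF329 overlap near 65.5 Mb, at positions 65499669 to 65508164 and 65485031 to 65521171, and ZFP28 lies at 63880404 to 63907053. Over all 6 higher sites of ZNF135, promoter and intronic, MSG cow 4 was at 55.4% and the other MSG cows between 91.6% and 97.9%, while MRG cows had 71.6%, 81.9%, 37.4%, 42.1%, 43.0% and 54.6%. Over the 6 higher sites of ZNF329 MSG cow 4 was at 57.8%, MRG cows 3 to 6 lay between 31.9% and 52.5%, and MRG cows 1 and 2, at 98.8% and 97.2%, were as high as the other MSG cows. The 5 higher sites of ZFP28, all in the promoter, had 52.0% in MSG cow 4, 25.8% to 57.6% in MRG cows 3 to 6, 67.3% in MRG cow 1 and 98.2% in MRG cow 2. MSG cow 4 and MRG cows 3 to 6 were thus the lowest 5 cows in the means of ZNF329, ZNF135 and ZFP28. Single sites departed from this: at the ZFP28 site 1.204 kb from the start MSG cow 4 and MRG cows 3 and 6 were at 100% and MRG cow 1 at 41.2%.

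ZNF470, a KRAB-type neighbour of ZFP28 that was chosen after its values were seen, had the same MSG cow low over its 7 higher sites, at 49.7% against 90.4% to 94.9% in the other MSG cows, but 5 of its 9 sites lay in ZFP28 itself and 1 inside ZNF470. MRG cows 3 to 6 lay between 29.3% and 62.7%. At the lower promoter sites of ZNF329 at 1.39 and 1.41 kb from the start and of ZNF135 at 0.359 kb, the other 7 cows were at 0% and these 5 cows were not. The other 3 lower promoter sites of ZNF329 and ZNF135 placed the cows differently. At 1.34 kb from the start of ZNF329 MSG cow 1 was at 0%, MSG cow 4 at 38.5% and MRG cows 1 to 4 at 100%. At 1.77 and 2.18 kb from the start of ZNF135 MSG cow 1 was at 0%, and MRG cows 3 and 4 lay between 92.3% and 100%. The limma differences were 33.4 ± 11.5 points for ZNF135 (adjusted p = 0.0281), 29.6 ± 12.9 for ZNF329 (0.0381) and 31.8 ± 12.4 for ZFP28 (0.0297). The exact permutation test called that of ZNF135 (adjusted p = 0.0407) and not those of ZNF329 (0.0643) or ZFP28 (0.0678). The ZFP28 call was lost without MSG cow 3 (adjusted p = 0.0509), MRG cow 4 (0.0609) or MRG cow 5 (0.0506). The ZNF329 call held only without MSG cow 4, MRG cow 1 or MRG cow 2, and otherwise the adjusted p lay between 0.0587 and 0.0902. The 7 lower sites of ZNF135 differed by -32.5 ± 13.1 points (limma adjusted p = 0.0317), which the exact permutation test did not call (adjusted p = 0.0590), and without MSG cow 1, 2 or 5 or MRG cow 1, 2 or 3 the adjusted p lay between 0.0502 and 0.0847.

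**Figure D5:**
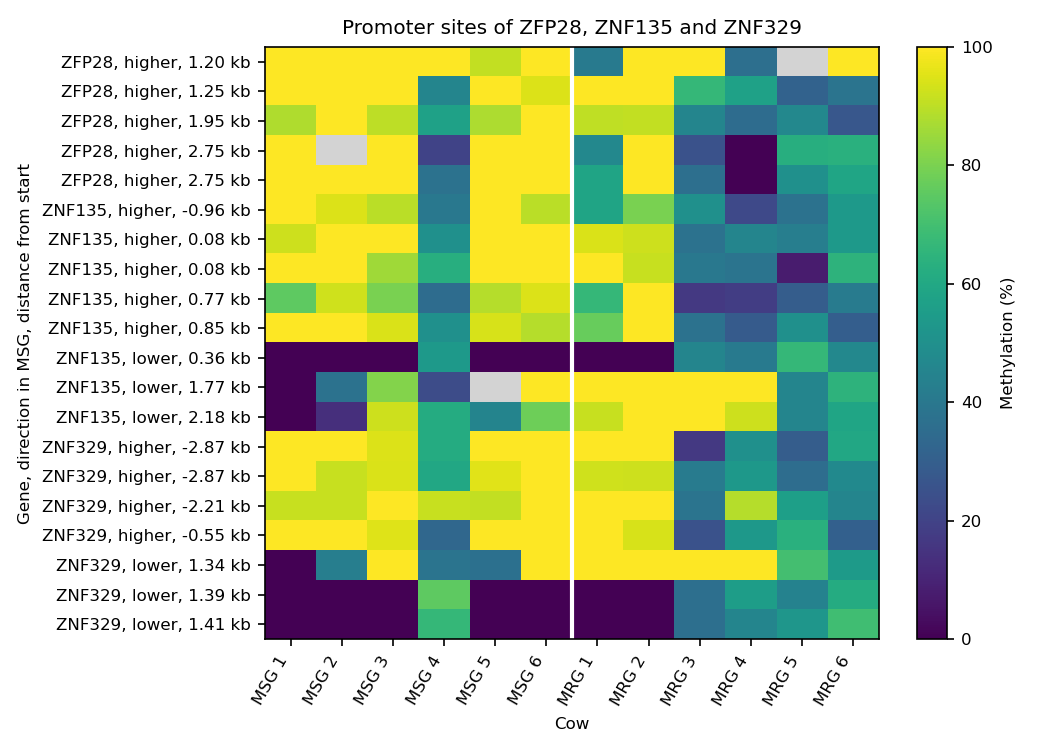
Percent methylation (colour, grey where a cow had no value) of each cow (columns) at the 20 promoter sites of ZFP28, ZNF135 and ZNF329, labelled by direction in MSG and distance from the nearest start. MSG cow 4 and MRG cows 3 to 6 take intermediate values at most of these sites. The other MSG cows and MRG cow 2 are mostly near 100% at higher sites. MRG cow 1 is lower at several higher sites of ZFP28 and ZNF135, down to 41.2%. MRG cow 4 is at 0% at the ZFP28 sites 2.75 kb from the start. At 3 of the lower sites the cows other than MSG cow 4 and MRG cows 3 to 6 are at 0%, and the remaining 3 lower sites differ from this.

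In all, 43 zinc finger genes had a promoter site, 8 had at least 3, and 50 of the 91 promoter sites were higher. Of all listed promoter sites 5809 of 10676 were higher, a share close to that of the zinc finger genes. ZNF165, a SCAN-domain protein known as a testis antigen, had 3 promoter sites and 6 sites in all. Its 5 lower sites gave 28.9%, 77.8%, 0%, 35.0%, 0% and 1.54% in MSG, and MRG cow 2 at 0% with the other MRG cows between 49.1% and 95.3%. The groups overlapped through MSG cow 2 and MRG cow 2, and the difference of -44.2 ± 15.5 points was called by limma (adjusted p = 0.0281) and not by the exact permutation test (adjusted p = 0.0698).

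In the list drawn up for the keeping of imprints, the parent-specific methylation set in the germ line, 2 of 3 genes had listed sites. ZNF202, a SCAN and KRAB protein known as a repressor of lipid metabolism genes, was lower in MSG at all 12 of its sites. A role of ZNF202 in imprints was not tested. MSG cows had 0%, 39.4%, 20.4%, 0.641%, 27.3% and 31.4%, and MRG cows 91.7%, 59.4%, 27.5%, 49.0%, 79.1% and 63.0%. MRG cow 3 lay among the MSG cows, and MRG cows 1, 2, 4, 5 and 6 lay above them. The difference was -41.7 ± 11.97 points (limma adjusted p = 0.0281). Of its sites 5 lay within 10 kb of the start and every one had a cow at 0%. ZNF445, which keeps imprints in the early embryo, had 1 intergenic site, 4.50 kb from the start and higher by 23.7 points between the plain means of the cows.

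The RNA-binding members ZFP36L1 and ZFP36L2, which speed the decay of messenger RNAs with AU-rich elements, had 8 and 4 sites, none within 10 kb of a start, and no site of ZFP36 was listed. The 5 lower sites of ZFP36L1 ranged from 0% to 83.3% in MSG and from 0% to 96.2% in MRG. Their difference of -32.0 ± 15.7 points was not called (limma adjusted p = 0.0560; exact permutation, adjusted p = 0.144). Limma called it without MSG cow 5 (adjusted p = 0.0336) or MRG cow 2 (adjusted p = 0.0380). The 4 sites of ZFP36L2 lay in introns of THADA. At 1 of them (chromosome 11, position 25609574) MSG lay between 20% and 43.8% and MRG between 50% and 88.9%, with no overlap.

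Several further genes are given as values only, since they were chosen after their values were seen. ZNF629 had 7 intronic sites at which all MRG cows were at 0%, and the MSG cows had 33.9%, 49.4%, 0%, 38.5%, 50.6% and 45.6%. ZNF277 was higher at all 15 sites, most of them in introns of DOCK4, with a median of 79.6% in MSG and 32.8% in MRG. ZNF316 was higher at all 12 sites, 3 of them in the promoter, with medians of 89.9% and 43.6%. ZNF330 was lower at all 20 sites, 50.9 kb or more from the start, where MSG cows 3, 4 and 6 had 37.8%, 31.7% and 29.2% and the other MSG cows lay between 78.1% and 86.2%, among or near the MRG cows at 78.4% to 90.9%. At ZNF326, a subunit of the DBIRD complex that couples transcription and splicing, the 19 lower sites did not overlap between the groups, with 0% to 72.7% in MSG and 74.7% to 93.9% in MRG. ZNF365 had 23 of 29 sites lower, with medians of 45.9% and 91.6%, and ZNF507 had 22 of 30 sites higher, with medians of 85.4% and 43.1%. In each of ZNF277, ZNF316, ZNF365 and ZNF507 at least 1 cow lay within the range of the other group.

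Partners through which KRAB zinc finger proteins repress were listed at 16 of 28 genes with 142 sites, 82 of them higher. ATF7IP, which stabilises the histone methyltransferase SETDB1, had 52 sites, none inside the gene and 40 higher. MORC3, a chromatin compaction ATPase, had 24 of 27 higher, with 5 of the 27 inside the gene. TASOR, a subunit of the HUSH silencing complex, had 10 of 12 lower, with 1 inside. DNMT3A, a de novo DNA methyltransferase, had 6 higher and 6 lower, with 6 of its 12 inside. SETDB1 itself had 3 listed sites, all inside the gene, and TRIM28 had none. Over the 12 lower sites of ATF7IP MSG lay between 19.9% and 43.9%, and MRG between 66.2% and 90.9% except for MRG cow 4 at 23.1%.

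Zinc finger genes outside this naming scheme, such as the ZBTB, KLF, ZC3H and ZDHHC families, had 593 sites at 70 genes, of which 44.2% were higher. The ZC3H family had 29 of 99 sites higher and the ZDHHC family 19 of 94, and KLF had 66 of 104. The difference between these shares and the 54.1% of the ZNF and ZFP genes was not tested, since sites of a gene are not independent.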

How the data were processed

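Whole-blood DNA of 12 cows (6 MSG, 6 MRG) was converted with enzymes and sequenced. Modified cytosines, hydroxymethylated ones included, were shielded by TET2 and T4-BGT before APOBEC3A deaminated the rest, per the labels' protocols. The submitters' processing notes name fastp 0.23.1, Bismark, DRAGEN, ChIPseeker 1.32.1 and the build ARS-UCD1.2, without roles. The authors' test for differences is not given in the sources used here. Per the file headers, the authors deposited percent methylation per cow for single CpG cytosines and for tiles, with the nearest gene and their own difference, p-value and q-value. No row had fewer than 5 cows of a group. Another 36 tile columns, numbered rather than named by cow, could not be tied to cows and were not used, so depth is unknown here. Precision is given by the spread of the cows, and the logistic test planned for read counts was replaced by limma on percent.

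Percent methylation was fitted with limma 3.58.1 (R 4.3.3), MSG against MRG, no covariate, two-sided. Benjamini-Hochberg adjustment ran over all rows of a table, or over all gene and direction means of at least 5 sites, at a threshold of 0.05. The limma scripts were first tested on simulated data. Exact permutation tests were two-sided. Whether the cows of a group were sampled or processed separately is not given beyond the labels, so p-values measure the spread between these samples. Gene lists and the members were chosen with earlier results of these data known. Named genes were those of the tile, the 8 with the most sites and the 6 with the most promoter sites. Also named were the 4 with the most sites per kb among genes with at least 10 sites inside. The 5 with the most non-overlapping sites with no cow at 0 and the 2 with the most sites of each list were added. Ties went to the gene with the larger mean absolute difference. They decided the last places among promoter sites, non-overlapping sites and the list of lymphocytes and innate signalling. RefSeq gene names and neighbours (assembly ARS-UCD2.0) matched 125 of 127 genes, and no coordinate was taken from that table. Positions are 1-based as deposited. No sequence is shown.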

Additional observations from a re-analysis of the deposited data

Results flagged for a closer look

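Each group of cows was checked for a single cow far from the others (Dixon's test at 95%) in the gene means of the named genes. The ZNF608 tile and the means per cow over all, higher and lower zinc finger sites were checked as well. Of 56 groups tested, 6 had such a cow. Chance flags about 1 in 20 groups of independent, normally spread values. These groups shared cows and in part overlapping genes, so whether 6 is more than chance gives was not tested. In MSG, cow 4 stood apart at the higher sites of 3 genes of chromosome 18. It had 52.0% at ZFP28, where the other MSG cows lay between 95.7% and 100%. It had 55.4% at ZNF135 against 91.6% to 97.9%, and 57.8% at ZNF329 against 94.8% to 98.6%. At the lower sites of ZNF518B, MSG cow 5 had 76.4% against 33.1% to 45.7% in the other MSG cows, and MRG cow 3 had 51.5% against 77.9% to 88.3% in the other MRG cows. At the lower sites of ZNF385D, MRG cow 4 had 90.5% against 86.1% to 87.4%, a gap of few points in a group that varied little.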

How the results depend on the processing

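The ZNF608 tile was no longer called (1 tile to 0) by the exact permutation test, at a threshold of 0.01 or on the logit scale, and leaving out 1 cow gave 0 to 1 called tiles. No zinc finger site was called by limma over all listed sites, while 224 of 291 were called when only sites with no cow at 0% were fitted. Of all zinc finger sites 54.1% were higher in MSG. The share became 58.5% with 1 vote per gene, where the 9 tied genes were left out, or 50.6% without distal intergenic sites. With both strands of a CpG counted once, the share was 54.3% of 862. It fell below an even split over sites with no cow at 0% (45.4%), over differences of at least 40 points (49.5%) and within 10 kb of the start (49.4%). Of the zinc finger promoter sites 54.9% were higher (5809 of 10676 over all genes), and 48.3% of the 29 within 1 kb of a start were. Of the gene means, limma called 56 of 62. The exact permutation test called 31, and limma called 27 of 27 with at least 10 sites (95.4% of all genes' means), 14 of 14 over sites with no cow at 0% (99.9%) and 27 of 30 without distal intergenic sites (84.9%), where fewer means were tested. Leaving out 1 cow gave 38 to 49, or 61.3% to 79.0%, against 57.8% to 78.8% of all genes' means. Using the median over a gene's sites, 3 of 24 named means were no longer called: ZNF135 lower (adjusted p = 0.0506), ZNF329 higher (0.0613) and ZNF536 higher (0.0565). The causes were not tested. No paired analysis was possible because replicate numbers only name the cows of a group. Depth was not analysed, so no limit by depth is given.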
